A study of Mus musculus with 36 samples.

Results

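Laminins are the large glycoproteins from which every basement membrane is assembled. An alpha, a beta and a gamma chain join into a cross-shaped trimer, the trimers form a sheet on the cell surface, and nidogens, perlecan and type IV collagen are bound to that sheet. Epithelial, muscle, fat and endothelial cells use different but overlapping sets of alpha chains, while the beta chain Lamb1 and the gamma chain Lamc1 are shared by most trimers. In the mammary gland the laminin sheet lies between the epithelial ducts and the stroma around them. The chains described here are the alpha chains Lama1, Lama2, Lama3, Lama4 and Lama5, the beta chains Lamb1, Lamb2 and Lamb3, and the gamma chain Lamc1. All 9 of these genes were found among the 18194 gene symbols of the arrays. They carried 17 of the 45101 probe sets when only probe sets annotated to a single gene were used, and the probe set with the highest mean over all arrays stood for each gene.

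RNA was collected by laser capture from the peri-ductal stroma and from the ductal epithelium of the fourth inguinal mammary glands of female C57BL/6 mouse fetuses at E19, amplified, and hybridized to Affymetrix mouse arrays. From E8 onwards the dams received bisphenol A (BPA) at 250 ng per kg per day, the synthetic estrogen ethinylestradiol (EE2) at 10 ng per kg per day, or the DMSO vehicle, by pump. Fetuses were ERα-/- or ERα+/+ littermates from matings of heterozygous parents, with 1 fetus of each genotype per litter and 3 litters per exposure. The 36 arrays thus formed 12 groups of 3: stroma and epithelium of BPA-exposed ERα-/-, EE2-exposed ERα-/-, vehicle ERα-/-, BPA-exposed ERα+/+, EE2-exposed ERα+/+ and vehicle ERα+/+ fetuses. Stroma and epithelium came from 1 gland of a fetus, so that 18 glands gave 18 pairs of arrays.

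Values were linear intensities, with array medians of 12 to 44.1 in the stroma and 10.9 to 66.8 in the epithelium. The compartments carried their own markers. All 10 epithelium markers were lower in the stroma and all 8 endothelium markers, 7 of 8 fibroblast markers and all 5 measured adipocyte markers were higher there (limma, adjusted p under 0.05). Of all probe sets, 16.8% were called lower in the stroma and 4.51% higher. Summed fibroblast markers reached 8272 to 31595 in the epithelium arrays, against 29427 to 47943 in the stroma arrays. Skeletal muscle markers summed to over 10000 on 5 arrays (3 of stroma and 2 of epithelium), and 3 arrays, 2 of stroma and 1 of epithelium, had a median under 15. The ratio of the 3′ to the 5′ Gapdh control probe sets, which grows as RNA is degraded or cut short, spanned 6.01, 11.4 and 20.8 (lowest, median, highest) in the stroma and 5.09, 8.33 and 12.9 in the epithelium. All of these lay above the upper limit that the methods report for such ratios of housekeeping genes, which are not named there. The part of this ratio in the compartment differences was not tested. Esr1, which encodes the deleted receptor, overlapped between the genotypes at each of its 3 probe sets, for example with 13.9 to 81.8 in ERα-/- stroma and 20.3 to 397 in ERα+/+ stroma. Stroma medians were 18.7, 37.6 and 48.7 in ERα-/- fetuses, against 23.4, 114.5 and 105.2 in ERα+/+ fetuses. In the epithelium they were 14.6, 23.1 and 17, against 5.2, 36.3 and 29.7. The paper reports Esr1 expression in ERα+/+ stroma only. The annotation used here does not place these probe sets relative to the deleted stretch, so they do not check the genotype labels. In tissue RNA of this kind, fewer cells of a type and less RNA per cell cannot be told apart.

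Promoter windows of RefSeq (GRCm38.p6), from 250 bases before to 50 bases after the start, were searched for 5 of the 9 chains. One window is shown for a chain that was lower in the stroma (Lama5), one for a chain that was higher there (Lama2) and one for a chain that did not pass the test (Lamb1). Each is written 5′ to 3′ on the strand of the gene, with capitals for the GC box, GGGCGG, read on either strand.
Lama5, chr2:180225810-180226109, minus strand: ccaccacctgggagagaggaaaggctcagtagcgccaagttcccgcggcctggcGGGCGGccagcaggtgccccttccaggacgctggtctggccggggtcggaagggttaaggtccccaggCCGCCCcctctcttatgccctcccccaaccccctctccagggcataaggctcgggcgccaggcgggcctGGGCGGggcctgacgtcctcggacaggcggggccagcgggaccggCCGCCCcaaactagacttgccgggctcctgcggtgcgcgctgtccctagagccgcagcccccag
Lama2, chr10:27616893-27617192, minus strand: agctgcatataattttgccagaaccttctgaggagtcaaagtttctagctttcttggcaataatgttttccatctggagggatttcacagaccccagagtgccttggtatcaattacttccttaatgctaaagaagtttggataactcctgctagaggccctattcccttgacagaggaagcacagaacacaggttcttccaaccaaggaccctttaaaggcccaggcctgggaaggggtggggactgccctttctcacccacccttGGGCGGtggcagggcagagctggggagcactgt
Lamb1, chr12:31265043-31265342, plus strand: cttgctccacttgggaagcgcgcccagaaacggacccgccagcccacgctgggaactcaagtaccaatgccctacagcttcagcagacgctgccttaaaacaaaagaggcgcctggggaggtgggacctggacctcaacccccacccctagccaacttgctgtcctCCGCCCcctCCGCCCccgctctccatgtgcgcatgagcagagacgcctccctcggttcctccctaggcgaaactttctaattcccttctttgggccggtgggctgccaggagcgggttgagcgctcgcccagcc

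The Lama5 window held 4 GC boxes and 72.7% G and C, the Lamb1 window 2 GC boxes and 63.7%, and the Lama2 window 1 GC box and 50.3%. Of the 32851 promoter windows of this length, 35.7% held a GC box, and their median share of G and C was 52.7%. The windows of Lamb2 (44.0% G and C) and of both starts of Lamb3 (59.3% each) held none. The AP-2 motif GCCNNNGGC, the AP-1 motif TGANTCA and the TATA box, TATAAA, were also searched on both strands. They were present in 16.6%, 7.81% and 13.6% of all windows, and in none of the windows of the 5 chains searched.

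The first comparison asked how the chains were divided between the peri-ductal stroma and the epithelium. Of the 9 chains, Lama2 and Lama4 were higher in the stroma, Lama1, Lama3, Lama5 and Lamb3 were lower, and Lamb1, Lamb2 and Lamc1 did not pass the test. The stroma was compared with the epithelium of the same gland by limma over all 36 arrays on log2 values, p-values adjusted by Benjamini-Hochberg across the whole array, and a call at an adjusted p under 0.05. Of all 45101 probe sets, 4.51% were called higher and 16.8% lower in the stroma, and the median log2 change over all of them was −0.35. The median of the 9 chains was −0.40. The values of the 2 compartments overlapped for each of the chains when glands were ignored.

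**Figure D1:**
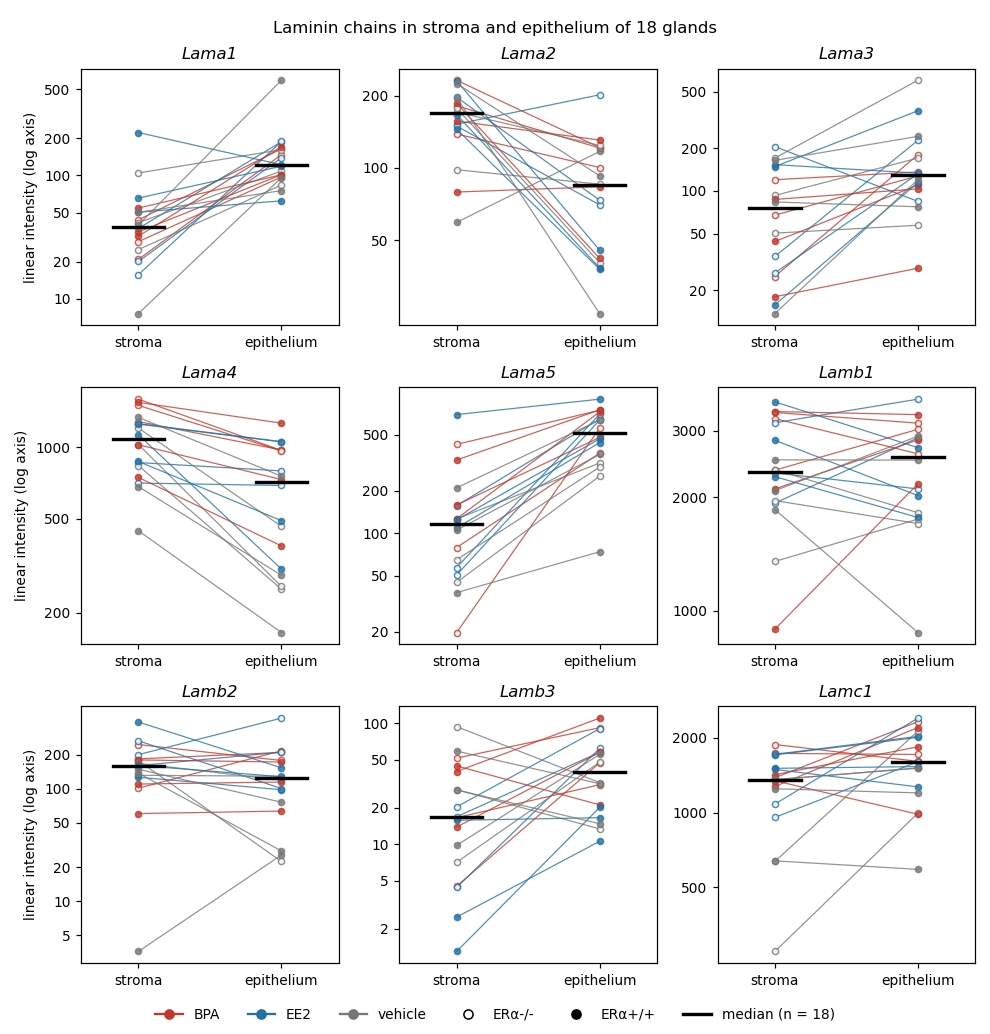
Linear intensity (log axis) of the 9 laminin chains in the stroma (left) and the epithelium (right) of 18 glands; each line joins the compartments of 1 gland, colours give the exposure, open points are ERα-/- and filled points ERα+/+, and black bars are medians. Lama4 was higher in the stroma of all 18 glands and Lama5 in the epithelium of all 18.

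Among the alpha chains of epithelial basement membranes, Lama5 showed the largest compartment difference. Lama5, the alpha chain of most mature epithelial and vascular basement membranes, had a lowest, median and highest intensity of 19.8, 117 and 695 in the stroma, against 74.0, 518 and 894 in the epithelium. The stroma was the lower compartment in all 18 glands. Stroma arrays averaged 163 ± 169 and epithelium arrays 519 ± 215 (SD, n = 18). Within glands the log2 change was −2.06, with a standard error of 0.27 (limma adjusted p = 2.07e-05).

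Lama1, the alpha chain of the first basement membranes of the embryo, spanned 7.6, 38.5 and 223 (lowest, median, highest) in the stroma, against 62.3, 121 and 591 in the epithelium. In 17 of 18 glands the stroma was the lower compartment. The exception was the EE2-exposed ERα+/+ gland of replicate 3, with 223 in the stroma and 122 in the epithelium. Summed epithelium markers were over 2500 on that stroma array and on 1 other, of the vehicle ERα-/- group, and these arrays had the 2 highest Lama1 values of the stroma, 223 and 105. The log2 change was −1.79 (standard error 0.31, adjusted p = 0.000321), and −2.04 (adjusted p = 0.00320) without the glands of those arrays and of 5 epithelium arrays rich in endothelium markers.

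Lama3 and Lamb3 belong to the same trimer, the laminin of the hemidesmosomes by which basal epithelial cells hold on to their basement membrane. Lama3 spanned 13.7, 75.7 and 205 in the stroma, against 28.6, 130 and 602 in the epithelium, and was lower in the stroma of 15 of 18 glands, at −1.13 ± 0.30 on the log2 scale (change ± standard error, adjusted p = 0.0105). Lamb3 spanned 1.3, 16.8 and 94.0 in the stroma, against 10.6, 39.8 and 111 in the epithelium. It was lower in the stroma of 13 of 18 glands, at −1.24 ± 0.41 on that scale (adjusted p = 0.0340). Lamb3 was dim: its stroma median lay under 27.45, the median of the stroma array medians. The filter on dim probe sets left it out. Lama3 and Lamb3 were no longer called after quantile normalization (−0.67, adjusted p = 0.155, and −0.83, adjusted p = 0.117), and Lamb3 also lost its call when any of 10 glands was left out (adjusted p up to 0.0665).

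Lama4 and Lama2 made up the other side of the division. Lama4, an alpha chain of the basement membranes of vessels and fat cells, spanned 444, 1080 and 1599 in the stroma, against 165, 710 and 1266 in the epithelium. All 18 glands had the higher value in the stroma. Stroma arrays averaged 1074 ± 328 and epithelium arrays 659 ± 342 (SD, n = 18), and within glands the log2 change was 0.86 (standard error 0.19, adjusted p = 0.00314).

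Lama2, the alpha chain of muscle and peripheral nerve and also of mesenchymal cells, spanned 59.4, 169 and 232 in the stroma, against 24.8, 84.6 and 201 in the epithelium. The stroma was higher in 15 of 18 glands, and the log2 change was 1.05 (standard error 0.27, adjusted p = 0.00805). On the arrays with high skeletal muscle markers, Lama2 was at 167, 232 and 197 on the 3 of stroma and at 122 and 73.4 on the 2 of epithelium, within the range of the other arrays except for the highest stroma value, 232. Without the 3 glands that held them, the log2 change of Lama2 was 0.96 (adjusted p = 0.042).

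Endothelium markers ran with the compartment in which Lama4 was higher. The 8 of them summed to 920 to 5844 in the stroma and 189 to 4065 in the epithelium, with medians of 3653 and 1219. On 5 epithelium arrays they summed to over 2000, and Lama4 lay between 755 and 1266 there, above the epithelium median of 710. The part of vessels in the Lama4 difference was not tested. When the 7 glands that held these arrays or the stroma arrays rich in epithelium markers were left out, the log2 changes in the 11 remaining glands were 0.81 for Lama4 and 0.86 for Lama2, and neither was called (adjusted p = 0.0703 and 0.159).

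Lamb1 and Lamc1, the chains that most trimers share, and Lamb2, a beta chain of synapses and of the vessels of the kidney, did not pass the test. Lamb1 spanned 894, 2341 and 3584 in the stroma, against 876, 2560 and 3643 in the epithelium, and was higher in the stroma of 11 of 18 glands. Its log2 change was −0.01 (95% interval −0.38 to 0.36, adjusted p = 0.973). Lamb2 spanned 3.6, 160 and 390 in the stroma, against 22.6, 123 and 422 in the epithelium, with a log2 change of 0.28 (95% interval −0.37 to 0.92, adjusted p = 0.565). Lamc1 spanned 275, 1358 and 1882 in the stroma, against 590, 1607 and 2406 in the epithelium. The stroma was lower in 12 of 18 glands, and the log2 change was −0.40 (95% interval −0.81 to 0.015, adjusted p = 0.162).

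**Figure D2:**
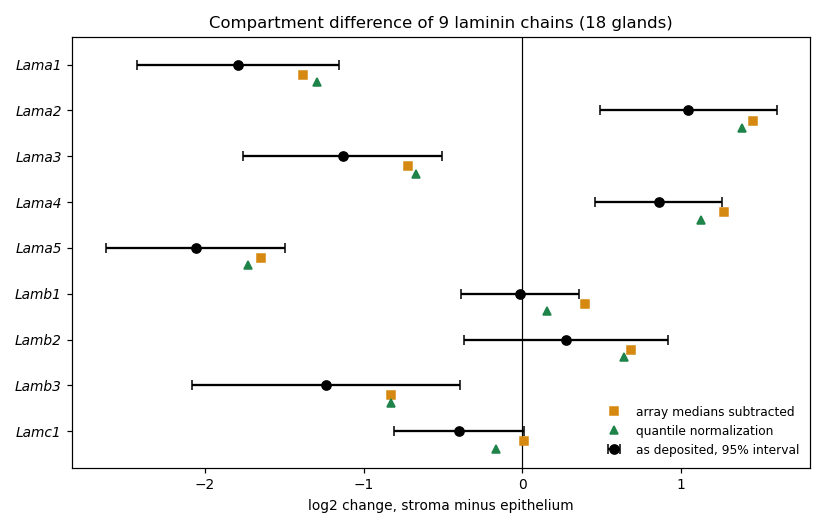
Log2 change, stroma minus epithelium, of the 9 chains over 18 glands; black points are the values as deposited with their 95% interval, squares the values after subtraction of the array medians and triangles those after quantile normalization, both without intervals. Lama1 and Lama5 stayed below 0 and Lama2 and Lama4 above 0 on each scaling, while Lamb1 and Lamc1 moved across 0.

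The scaling of the arrays bears on these signs, because the median of all probe sets was itself lower in the stroma. After the median of each array was subtracted, Lama1 (−1.38), Lama5 (−1.65), Lama2 (1.46) and Lama4 (1.27) were still called, while Lamb1 stood at 0.40 (adjusted p = 0.143) and Lamc1 at 0.0144 (adjusted p = 0.975). A chain with a change near −0.35 on the deposited scale, such as Lamc1, lay close to the middle of all probe sets.

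Other probe sets of the same chains were not always alike. Lamc1 had a further probe set, dimmer than the one that stood for the gene, that was called lower in the stroma, with a log2 change of −0.71 (adjusted p = 0.0202). The dimmer probe set of Lama3 gave −0.32 (adjusted p = 0.647). Of the other 2 probe sets of Lama5, the brighter gave −3.10 (adjusted p = 0.00157) and the dimmer −0.46 (adjusted p = 0.423). Lama4 was also called at its dimmer probe set, with 1.47 (adjusted p = 0.0484). The 3 other probe sets of Lamb1 gave −0.27, −0.03 and 0.80, none called.

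The compartment difference was then estimated within each exposure and genotype. Lama1 and Lama5 were lower in the stroma in every stratum, and Lama4 and Lama2 higher in every stratum, as estimates, but with 6 or 9 glands only some of these were called. After BPA, Lama1 (−1.89, adjusted p = 0.0324) and Lama5 (−2.19, adjusted p = 0.0193) were called lower and no chain higher, where 2.73% of all probe sets were called lower and 0.118% higher. After EE2, Lama5 (−2.26, adjusted p = 0.0155) was called lower and no chain higher, beside 3.06% and 0.557% of all probe sets. In vehicle glands, Lama1 (−1.98, adjusted p = 0.0232) was called lower and Lama4 (1.44, adjusted p = 0.0197) higher, beside 1.52% and 1.84% of all probe sets.

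By genotype, Lama1 (−2.10, adjusted p = 0.00276) and Lama5 (−2.57, adjusted p = 0.000942) were called lower in the stroma of ERα-/- fetuses and no chain higher, where 6.76% of all probe sets were called lower and 1.14% higher. In ERα+/+ fetuses, Lama1 (−1.48, adjusted p = 0.0221) and Lama5 (−1.55, adjusted p = 0.0228) were called lower and Lama4 (0.91, adjusted p = 0.0409) higher, beside 4.38% and 2.66% of all probe sets.

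**Figure D3:**
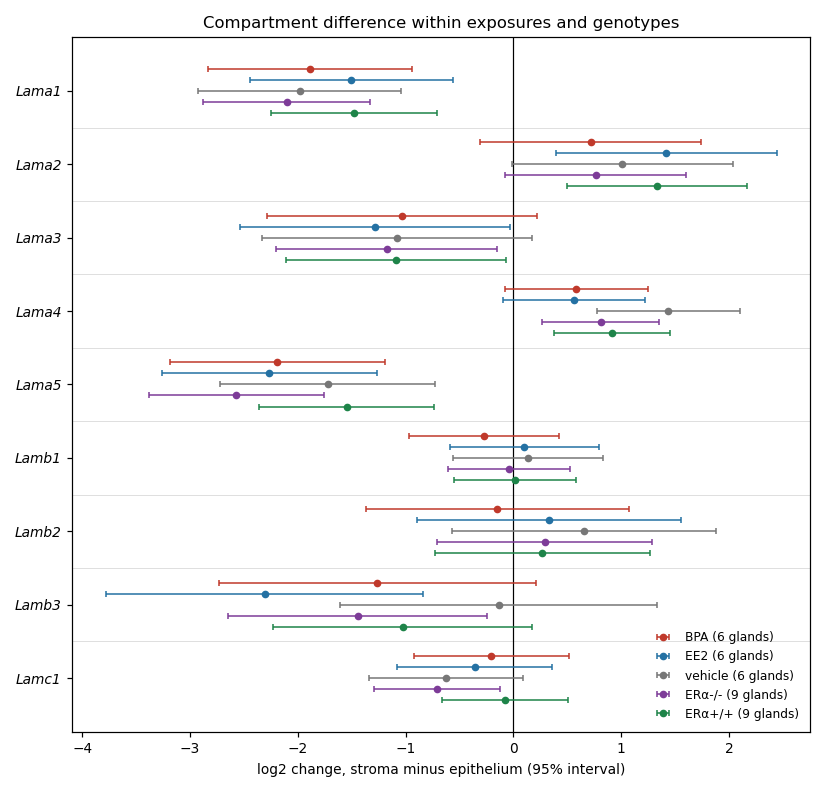
Log2 change, stroma minus epithelium, of the 9 chains within BPA, EE2 and vehicle glands (6 each) and within ERα-/- and ERα+/+ glands (9 each), with 95% intervals. The intervals of a chain overlap one another across exposures and across genotypes.

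Whether the compartment difference itself depended on exposure or genotype was tested on the stroma minus epithelium difference of each gland. None of the 9 chains, and 0% of all probe sets, was called by limma for BPA against vehicle, EE2 against vehicle, BPA against EE2 or ERα-/- against ERα+/+. Before adjustment, 1 chain passed 0.05, the dim chain Lamb3 for EE2 against vehicle. Its stroma minus epithelium change was −2.31 in EE2 glands and −0.13 in vehicle glands, and these differed by −2.17 (95% interval −4.25 to −0.09, adjusted p = 0.647). The Lama4 change was 0.58 in BPA glands and 1.44 in vehicle glands, a difference of −0.85 (95% interval −1.79 to 0.08, adjusted p = 0.670). With EE2 it was 0.56, a difference of −0.87 against the same vehicle glands (95% interval −1.81 to 0.06, adjusted p = 0.687). In simulated data no change of the compartment difference by up to 3 on the log2 scale was recovered for BPA. Few probe sets, drawn at random, were changed there, and the arrays of a gland were simulated as independent. That simulation does not give the power for these chains, and the lack of calls does not show equal differences.

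The next question was whether BPA, EE2 or loss of ERα altered the chains within a compartment. In the stroma, 0 of 9 chains were called in any of the comparisons BPA against vehicle, EE2 against vehicle, BPA against EE2 and ERα-/- against ERα+/+ (limma, 6 groups of 3 arrays). The share of all probe sets called was 0% for the exposures and 0.00222% for the genotypes. Before adjustment, 0, 1, 0 and 0 chains had a p under 0.05 in these comparisons, beside 4.54%, 4.51%, 3.75% and 3.82% of all probe sets. The 6 arrays of an exposure in a compartment came from 3 litters, with 1 fetus of each genotype. These fits, and those on the compartment difference, had no litter term and counted littermates as independent. Their p-values for exposures may therefore be too small and their intervals too narrow.

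The chain in the stroma with an unadjusted p under 0.05 was the dim chain Lamb3 after EE2. In EE2 stroma its values were 20.4, 4.4 and 16.9 in ERα-/- fetuses and 1.3, 15.8 and 2.5 in ERα+/+ fetuses. In vehicle stroma they were 94.0, 7.1 and 28.3 in ERα-/- fetuses and 9.8, 28.2 and 59.0 in ERα+/+ fetuses. The groups overlapped, and the log2 change was −1.99 (95% interval −3.75 to −0.24, adjusted p = 0.996).

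Lamc1 came next in the stroma. Its lowest, median and highest values were 1276, 1403 and 1882 after BPA, 957, 1501 and 1718 after EE2, and 275, 943 and 1360 with vehicle. Of the BPA and of the EE2 arrays, 4 of 6 each lay above all vehicle arrays. The log2 changes were 0.90 for BPA (95% interval −0.02 to 1.83, adjusted p = 0.993) and 0.79 for EE2 (95% interval −0.13 to 1.71, adjusted p = 0.996), both against the same vehicle arrays.

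In the epithelium, 0 of 9 chains were called in the same comparisons as well, beside 0% of all probe sets for BPA against vehicle, BPA against EE2 and ERα-/- against ERα+/+ and 0.00222% for EE2 against vehicle. Before adjustment, Lama4, Lama5 and Lamb2 had a p under 0.05 for BPA and for EE2 against the same vehicle arrays, and no chain did for BPA against EE2 or for genotype. That was 3 of 9 chains for each agent, where 17.7% of all probe sets had such a p for BPA and 8.88% for EE2. For BPA against EE2 and for genotype the shares were 4.22% and 8.19%. The whole distribution was shifted in this compartment: the median of all probe sets was 0.68 higher after BPA and 0.40 higher after EE2. The 3′ to 5′ Gapdh ratio moved with exposure here as well, with a lowest, median and highest value of 5.09, 7.97 and 8.77 after BPA and 5.46, 6.96 and 12.9 after EE2, against 8.56, 10.8 and 12.6 with vehicle, and its part in these values was not tested.

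Lama4 in the epithelium spanned 383, 969 and 1266 after BPA and 306, 742 and 1057 after EE2, against 165, 273 and 755 with vehicle. Of the BPA arrays, 4 of 6 lay above every vehicle array. The log2 change was 1.37 for BPA (95% interval 0.41 to 2.34, adjusted p = 0.211) and 1.07 for EE2 (95% interval 0.10 to 2.03, adjusted p = 0.540). Markers of other cell types moved with it. The sum of the endothelium markers in the epithelium spanned 395, 2071 and 4065 after BPA and 189, 1527 and 3027 after EE2, against 242, 301 and 2791 with vehicle. For BPA, 4 of the 8 had an unadjusted p under 0.05, beside 17.7% of all probe sets. Median sums of the adipocyte markers were 21636 after BPA and 14037 after EE2, against 8086 with vehicle, and those of the fibroblast markers 23466 after BPA and 19169 after EE2, against 12722 with vehicle. The part of these cells in the Lama4, Lama5 and Lamb2 values was not tested.

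Lamb2 in the epithelium spanned 63.2, 175 and 216 after BPA and 97.8, 140 and 422 after EE2, against 22.6, 51.9 and 129 with vehicle. The log2 changes were 1.51 for BPA (95% interval 0.42 to 2.60, adjusted p = 0.216) and 1.64 for EE2 (95% interval 0.54 to 2.73, adjusted p = 0.448). Lama5 in the epithelium spanned 370, 642 and 751 after BPA and 440, 641 and 894 after EE2, against 74.0, 305 and 634 with vehicle. Its log2 changes were 1.11 for BPA (95% interval 0.12 to 2.09, adjusted p = 0.253) and 1.17 for EE2 (95% interval 0.19 to 2.16, adjusted p = 0.527). Without the vehicle ERα+/+ epithelium array of replicate 2 they were 0.66 for BPA and 0.72 for EE2. After subtraction of the array medians these BPA changes shrank to 0.47 for Lama4, 0.61 for Lamb2 and 0.20 for Lama5, and those for EE2 to 0.54, 1.1 and 0.64.

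**Figure D4:**
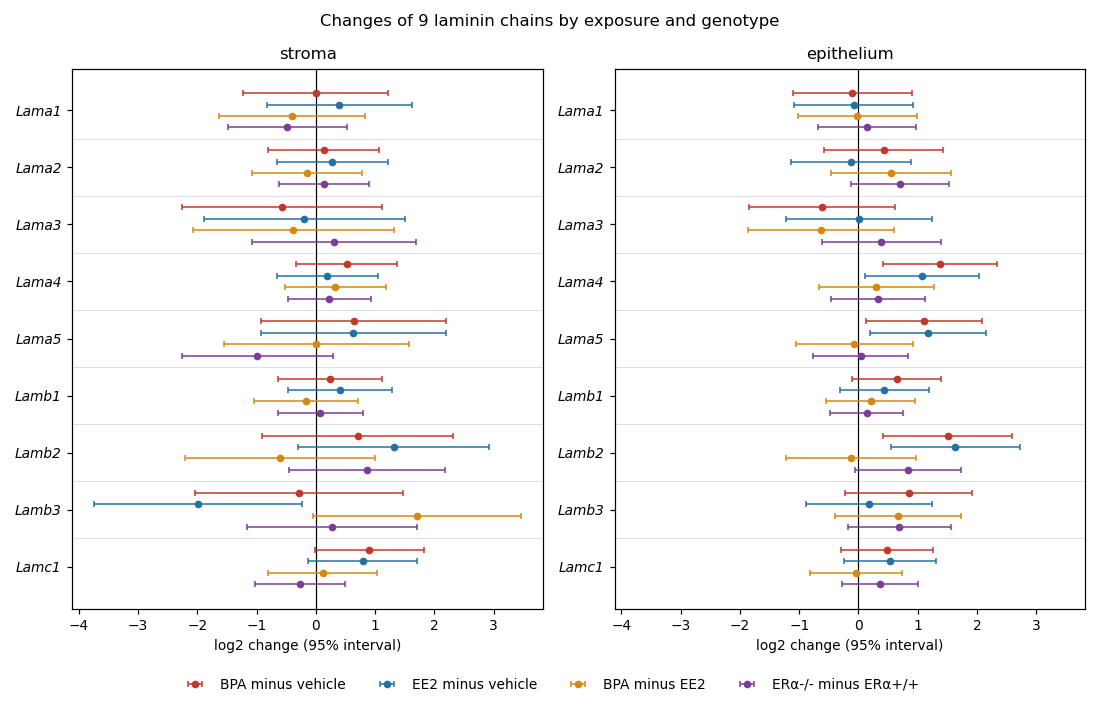
Log2 changes of the 9 chains in the stroma (left panel) and the epithelium (right panel) for BPA minus vehicle, EE2 minus vehicle, BPA minus EE2 and ERα-/- minus ERα+/+, with 95% intervals. In the epithelium the intervals of Lama4, Lama5 and Lamb2 lie above 0 for BPA and EE2; none of the changes was called after adjustment. Littermates were counted as independent.

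BPA and EE2 were also set against each other. In the stroma the widest difference was that of the dim chain Lamb3, with a log2 change of 1.71 for BPA minus EE2 (95% interval −0.05 to 3.47). In the epithelium it was that of Lamb3 as well, with 0.66 (95% interval −0.40 to 1.73). In the epithelium the Lama5 and Lamc1 changes were −0.07 (95% interval −1.05 to 0.92) and −0.04 (95% interval −0.82 to 0.73). The agents were given at different doses, so that the values stand side by side and do not compare the agents dose for dose.

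No chain was called for ERα-/- against ERα+/+ in either compartment. In the epithelium the estimates of all 9 chains were above 0, where the median of all probe sets was 0.38. The largest were those of Lamb2, at 0.84 (95% interval −0.05 to 1.73, adjusted p = 0.618), and Lama2, at 0.70 (95% interval −0.12 to 1.53, adjusted p = 0.637). In the stroma Lama5 had the largest, at −0.99 (95% interval −2.26 to 0.29). Its stroma values spanned 19.8, 65.0 and 427 in ERα-/- fetuses, against 38, 127 and 695 in ERα+/+ fetuses.

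Within a genotype or an exposure, and in the tests of whether a response to BPA or EE2 differed between genotypes, no chain was called in either compartment. In these 22 comparisons 0% of all probe sets were called, except in the epithelium of ERα-/- fetuses, with 0.00222% for BPA and 0.00443% for EE2 against vehicle. The lowest unadjusted p of a chain in them, 0.00773, was that of Lamb3 in EE2-exposed epithelium, with 90.4, 62.1 and 57.7 in ERα-/- fetuses, against 20.2, 16.6 and 10.6 in ERα+/+ fetuses. These groups did not overlap, and the log2 change was 2.17 (95% interval 0.66 to 3.68, adjusted p = 0.555). For Lama1 in EE2-exposed stroma the values were 37.2, 20.1 and 15.7 in ERα-/- fetuses, against 50.4, 65.6 and 223 in ERα+/+ fetuses. These groups did not overlap either, and the log2 change was −1.99 (95% interval −3.72 to −0.26, adjusted p = 1.00), and the value of 223 came from the stroma array with summed epithelium markers over 2500. The largest log2 change among the direct comparisons was that of Lamb3 for BPA minus EE2 in ERα+/+ stroma, at 2.97 (95% interval 0.49 to 5.45, adjusted p = 1.00). Lamb3 was dim there, with a lowest, median and highest value of 1.3, 2.5 and 15.8 after EE2 and 13.9, 40.0 and 44.5 after BPA.

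The groups of 3 arrays did not overlap in 23 of the 162 direct comparisons of a chain within a genotype or an exposure, beside 10.8% over all probe sets. In ERα-/- epithelium, Lama4, Lama5, Lamb1 and Lamb2 were higher on every BPA array than on every vehicle array, and Lama4, Lama5, Lamb1 and Lamb3 on every EE2 array, where 25.8% and 17.8% of all probe sets did not overlap. Lama4 had 971, 975 and 967 after BPA and 1057, 690 and 795 after EE2, against 463, 251 and 258 with vehicle. Its log2 changes were 1.64 for BPA (95% interval 0.28 to 3.01, adjusted p = 0.407) and 1.42 for EE2 (95% interval 0.06 to 2.79, adjusted p = 0.575), not called. In EE2-exposed epithelium 15.6% of all probe sets, and in EE2-exposed stroma 9.27%, did not overlap between the genotypes.

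Ordered by mean intensity over the 12 groups, the 6 highest groups were all stroma for Lama2 and 5 of 6 stroma for Lama4. For Lama1, Lama3 and Lama5, 5 of the 6 highest groups were epithelium, and for Lamb1 they were 3 of each. Neighbours in this order overlapped in every one of the 11 pairs for each chain. The groups were sorted by their means first, so this overlap does not test differences between groups.

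Among the chains themselves, log2 values centred on the array medians were correlated over the 36 arrays, which come in pairs from 18 glands and share the compartment difference. Lama2 and Lama4 had the highest Pearson r of the 36 pairs of chains, 0.65, and Lama2 and Lama5 the lowest, −0.53. After the group means were removed, the r of Lama2 and Lama4 was 0.72 over the stroma arrays and −0.10 over the epithelium arrays, and that of Lama2 and Lama5 was −0.09 over the stroma arrays and −0.14 over the epithelium arrays. Lama1 and Lama5 had an r of 0.50, and after removal of the group means 0.34 in the stroma and −0.24 in the epithelium. Lama3 and Lamb3, which share a trimer, had an r of 0.08.

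Other genes whose values ran most like each chain were sought in the same way over the 36 arrays. For Lama1 they were Tfap2c (r = 0.83), Bex3 (0.82) and Apobec3 (0.80), and for Lama5 they were Tm4sf1 (0.74), Tfap2b (0.74) and St14 (0.74), where Tfap2c and Tfap2b encode AP-2 transcription factors. For Lama4 they were Cma1 (0.93), a protease of mast cells, Nid1 (0.92), the nidogen that binds laminin, and Pmp22 (0.90). Lama2 ran most like Rhoj (0.84), C1qb (0.80) and Mfap4 (0.80), and Lamb1 like Atp5c1 (0.83), Atp5g3 (0.79) and Fth1 (0.79). The closest genes for Lamb2 were Mcoln1 (0.77), Gria3 (0.72) and Hoxc4 (0.70), for Lamc1 Gapvd1 (0.75), Adam17 (0.71) and Tpm1 (0.71), for Lama3 Ppp1r13l (0.61), 2310022A10Rik (0.60) and Sdf2l1 (0.59), and for Lamb3 Sh3gl2 (0.63), Fgfbp1 (0.58) and Ddx19b (0.57).

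The partners with which laminins build the basement membrane were mostly higher in the stroma. Of 7 listed, 4 were called higher, 1 lower and 2 not, beside 4.51% of all probe sets called higher and 16.8% lower. Both nidogens, which link laminin to type IV collagen, were higher, Nid1 by 1.71 on the log2 scale (standard error 0.24, adjusted p = 5.08e-05) and Nid2 by 2.22 (standard error 0.44, adjusted p = 0.00128). The type IV collagen chains were higher by 0.52 (Col4a1, adjusted p = 0.0151) and 0.86 (Col4a2, adjusted p = 0.00462). Agrn, which encodes the laminin-binding proteoglycan agrin, was lower in the stroma, at −1.19 (adjusted p = 0.000143). Hspg2, which encodes perlecan, had a change of 1.00 (adjusted p = 0.131), and Ntn4, a netrin related to laminins, −0.14 (adjusted p = 0.884). The median of the list was 0.86, beside −0.35 over all probe sets.

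Receptors of laminin and parts of the hemidesmosome were mostly lower in the stroma, with 6 of 10 called lower, 2 higher and 2 not. Of all probe sets, 16.8% were called lower and 4.51% higher. Itgb4, the integrin subunit of hemidesmosomes, had a log2 change of −3.30 (adjusted p = 8.55e-05), and Col17a1, their transmembrane collagen, −2.33 (adjusted p = 5.80e-05). The integrin alpha subunits that bind laminin in epithelia followed, with −1.98 for Itga3 (adjusted p = 4.97e-06) and −1.33 for Itga6 (adjusted p = 0.000100). Dag1, which encodes dystroglycan, had −1.04 (adjusted p = 0.000795) and Bcam, a receptor of the Lama5 chain, −1.44 (adjusted p = 0.0312).

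Itga7, the integrin subunit of muscle, and Dst, a plakin, were higher in the stroma, at 2.34 (adjusted p = 0.00124) and 1.06 (adjusted p = 0.00399). Itgb1, the beta subunit that most laminin-binding integrins share, had −0.06 (adjusted p = 0.890), and Plec, the linker to keratin filaments, −0.35 (adjusted p = 0.293). The median of the list was −1.19. No member of either list was called for BPA, EE2 or genotype, averaged over the other factor, in either compartment. At most 0.00222% of all probe sets were called in these comparisons.

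**Figure D5:**
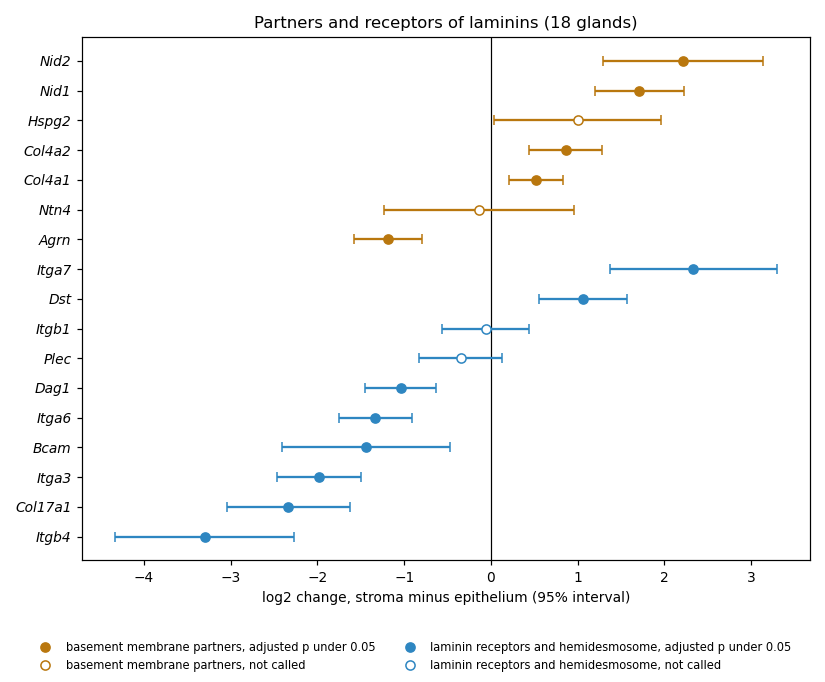
Log2 change, stroma minus epithelium, of the 7 basement membrane partners and 10 receptor and hemidesmosome genes over 18 glands, with 95% intervals; filled points were called (limma adjusted p under 0.05) and open points were not. Nid1, Nid2, Col4a1 and Col4a2 lie above 0 and Itgb4, Col17a1, Itga3 and Itga6 below it.

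The gamma chain Lamc3 was dim, with a mean intensity of 6.33 over all arrays, and its log2 change was −0.17 (adjusted p = 0.824).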

How the data were processed

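The deposited values are linear intensities per probe set, which the labels give as the authors' GCOS output. The methods describe RMA and logs, and these values are not logs, so the scaling they received is not given in the sources used here. They held 39 zeros. A floor of 0.1 was set before log2 was taken. Groups were read from the labels. Of the probe sets, 34958 carried 1 symbol. Fits used limma 3.58.1 in R 4.3.3 (statmod 1.5.0), p-values being adjusted by Benjamini-Hochberg across all 45101 probe sets. They compared stroma with epithelium with the gland as a block, and exposures and genotypes over the 6 groups of a compartment without a litter term. The same replicate number marked the compartments of 1 gland. Their residuals correlated above 0.1 in 7 of 18 pairs (mean 0.0981, against −0.0477 for other numbers), and in 15 of 18 the own partner was highest. In simulated data, log2 changes of 1, 2 and 3 were called in 8%, 46% and 90% for stroma minus epithelium, and in 0%, 4% and 22% for BPA in the stroma. Those data held few changed probe sets, drawn at random, so the shares do not give the power for the chains. Named genes are the 9 chains, their other probe sets where these differed in sign or call, the 3 genes most like each chain, and members of the lists. The chains and lists were chosen with earlier results of these data known. Alternatives covered scaling, floor and offset, filters, weights, blocks, the methods' tests, and each replicate left out. The number of arrays limits precision.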

Additional observations from a re-analysis of the deposited data

How the results depend on the processing

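Of 508 alternative values of single-chain changes, 475 kept their direction and their side of the threshold, 21 lost a call, 1 gained one and 11 changed sign. Lama1 and Lama5 were called under all 31 alternatives of the compartment comparison, and Lama2 and Lama4 under 30 of 31. The chains called higher in the stroma, 2 as deposited, numbered 0 without the 7 glands that held arrays rich in markers of the other compartment. Both arrays of such a gland were left out. These glands were chosen after seeing the data, as were the other exclusions by medians or markers. The chains called lower, 4 as deposited, numbered 2 after quantile normalization, 2 with array medians subtracted and 2 without those 7 glands. With fewer glands the test has fewer samples, and the cause of the other losses was not tested. Lama3 was also not called with the mean of all its probe sets (−0.72, adjusted p = 0.0893), with array medians subtracted (−0.72, adjusted p = 0.154) or without those 7 glands (adjusted p = 0.0710). Lamb3 was not called with array medians subtracted (−0.83, adjusted p = 0.127), without the glands of the 5 arrays of high muscle markers (adjusted p = 0.0688) or without those 7 glands (adjusted p = 0.0732). Lamc1 was called with the mean of its probe sets (−0.55, adjusted p = 0.0301). The 11 changes of sign were of chains that were not called. Lamb1 stood at 0.16 after quantile normalization, 0.40 with array medians subtracted and 0.12 with the mean of its probe sets, and between −0.0765 and 0.0626 with each replicate left out. Lamb2 stood at −0.0072 without the 7 glands, and Lamc1 at 0.0144 with array medians subtracted. With no replicate block for the gland, Lama3 kept its change of −1.13 and lost its call (adjusted p = 0.0580), and no other call of the 9 chains changed. With the replicate number as a replicate block for litters, 0 chains were called for the genotypes. Exposures lie between litters, so that they could not be fitted with this block. No chain was called under any of the 356 alternatives run for exposures and genotypes, within a compartment or on the compartment difference. Same-numbered genotypes correlated above 0.1 in 2 of 18 pairs (mean 0.0271), so litters are not shown to follow the numbers. At unadjusted p under 0.05 with a 2-fold change, the methods' t-test gave Lama4 and Lamb2 for BPA and for EE2 in the epithelium, beside 9.87% and 4.07% of all probe sets, and 0 chains otherwise. The methods' one-way ANOVA over exposures gave Lamc1 in the stroma and Lama4, Lama5 and Lamb2 in the epithelium at unadjusted p under 0.05, beside 3.9% and 11% of all probe sets. No chain passed either test after adjustment.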

Other observations

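The markers of other cell types divided between the compartments as follows, beside 4.51% of all probe sets called higher in the stroma and 16.8% lower. Of 6 markers of smooth muscle and pericytes, 4 were called higher in the stroma, with a median log2 change of 1.51 over the list, and the 5 measured adipocyte markers had a median of 1.78. The 8 skeletal muscle markers had 0 calls in either direction and a median of 0.26. Of 4 measured genes on the list for Schwann cells, 1 was called higher and 2 lower in the stroma. The 4 summed to 277 to 2000 in the stroma and 1934 to 4841 in the epithelium. The brightest of them were Sox10 and Erbb3, with means of 976 and 905 over all arrays.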
